A study of Bos taurus with 6 samples.

Results

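The genes described here were 40 components of the Wnt pathway, from secreted ligands and their receptors to beta-catenin and its partners on DNA. They were picked by gene symbol from a table of FPKM values of bovine preadipocytes that lists 23475 genes, and all 40 were present. Secreted antagonists of the pathway were left out. FPKM stands for fragments per kilobase of transcript and per unit of mapped fragments, so that levels of different genes can be set side by side. Of the 6 libraries, 3 came from cells given the bta-miR-484 agomir, a modified RNA duplex that acts as the miRNA, and 3 from cells given the agomir NC, its negative control. Cells of both groups had been isolated from calf subcutaneous fat, grown in DMEM with fetal bovine serum and collected at 48 h of transfection, so no untransfected cells were compared. Neither calves nor cultures are assigned to samples in the deposited record, and p-values here measure the spread between these samples, which may be technical. Library depth is unknown, since FPKM holds no read numbers.

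The labels call the cells adipocytes. Stromal transcripts were abundant, with COL3A1 between 7428 and 7916 FPKM, PDGFRA between 162 and 172 FPKM and THY1 between 55.7 and 65.3 FPKM over the 6 libraries. The preadipocyte marker DLK1 was listed at 0, and CD34 was between 0.383 and 0.783 FPKM. Of the genes that define mature adipocytes, ADIPOQ was between 0.0763 and 0.197 FPKM, LEP reached at most 0.0368 FPKM and CIDEC at most 0.230 FPKM. The 5 other mature adipocyte markers were low but present, with means of 3.73 FPKM for LPL, 3.55 FPKM for PPARG, 2.39 FPKM for FABP4, 1.27 FPKM for CIDEA and 1.23 FPKM for PLIN1. Cells with these levels are called preadipocytes below, and how many of them had begun to differentiate was not measured.

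Wnt proteins are secreted, lipid-modified ligands of frizzled receptors. In the canonical branch, a frizzled together with LRP5 or LRP6 recruits dishevelled and holds back the destruction complex of AXIN, APC and GSK3, so that beta-catenin accumulates and joins TCF/LEF factors on DNA. In other branches, ligands such as WNT5A act through ROR and RYK receptors without beta-catenin. Canonical signaling is known to keep preadipocytes undifferentiated, and WNT10B is its best known ligand in fat.

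Between agomir and agomir NC, the Wnt genes tested differed little. FZD4 was higher and FZD1 lower at an unadjusted p under 0.05, the most abundant ligand WNT5A was at nearly equal levels, and beta-catenin transcript was slightly lower in each agomir library. Among members too low for the test, groups did not overlap in WNT5B and WNT2B, lower with the agomir, and LEF1, higher. Of the 6045 genes with means under 0.5 FPKM that were above 0 in some library, groups were apart in 6.8%. Of the 40 members, 31 reached a mean of 0.5 FPKM and were tested with limma, and 9 did not. The log2 difference, agomir minus agomir NC on the log2(FPKM + 0.5) scale, understates changes of low genes because of the added 0.5. It was positive in 19 and negative in 12 of the 31 genes, next to 6840 and 5582 of all 12422 genes tested. It ranged from -0.14 to 0.20 in the members and had a median of 0.02, next to 0.01 for all genes tested. The median size of the log2 difference was 0.0728 in the members and 0.0755 in all genes tested.

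After Benjamini-Hochberg adjustment over all genes, 0 of the 31 members had a limma p under 0.05, where 0.00805% of all genes did. The members' adjusted p ran from 0.406 to 0.990. At an unadjusted p under 0.05 there were 2 members (6.45%), beside 10.9% of all genes, with 1 higher (6.63% of all genes) and 1 lower (4.31% of all genes). Groups did not overlap in 3 tested members (9.68%), beside 17.2% of all genes. The agomir libraries lay above in LRP6, which 10.9% of all genes did, and below in FZD1 and CTNNB1, which 6.36% of all genes did. Taken in either direction, both shares of the tested members were below those of the 12422 genes that passed the same filter, which are the genes meant by all genes here. Of the 9 members below the filter, groups did not overlap in WNT2B, WNT5B and LEF1, next to 6.8% of the 6045 genes below it that were above 0 in some library. That share includes genes with a 0 in each group, which cannot be apart. On the scale of FPKM + 0.5, the 95% interval of the log2 difference stayed inside a 1.5-fold change in all 31 tested members. It did so in 92.9% of all genes. It stayed inside a 1.25-fold change on that scale in 19 members (61.3%), next to 61.5% of all genes. For low genes such as AXIN2 and FZD2, the same interval spans a larger change of FPKM itself.

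**Figure D1:**
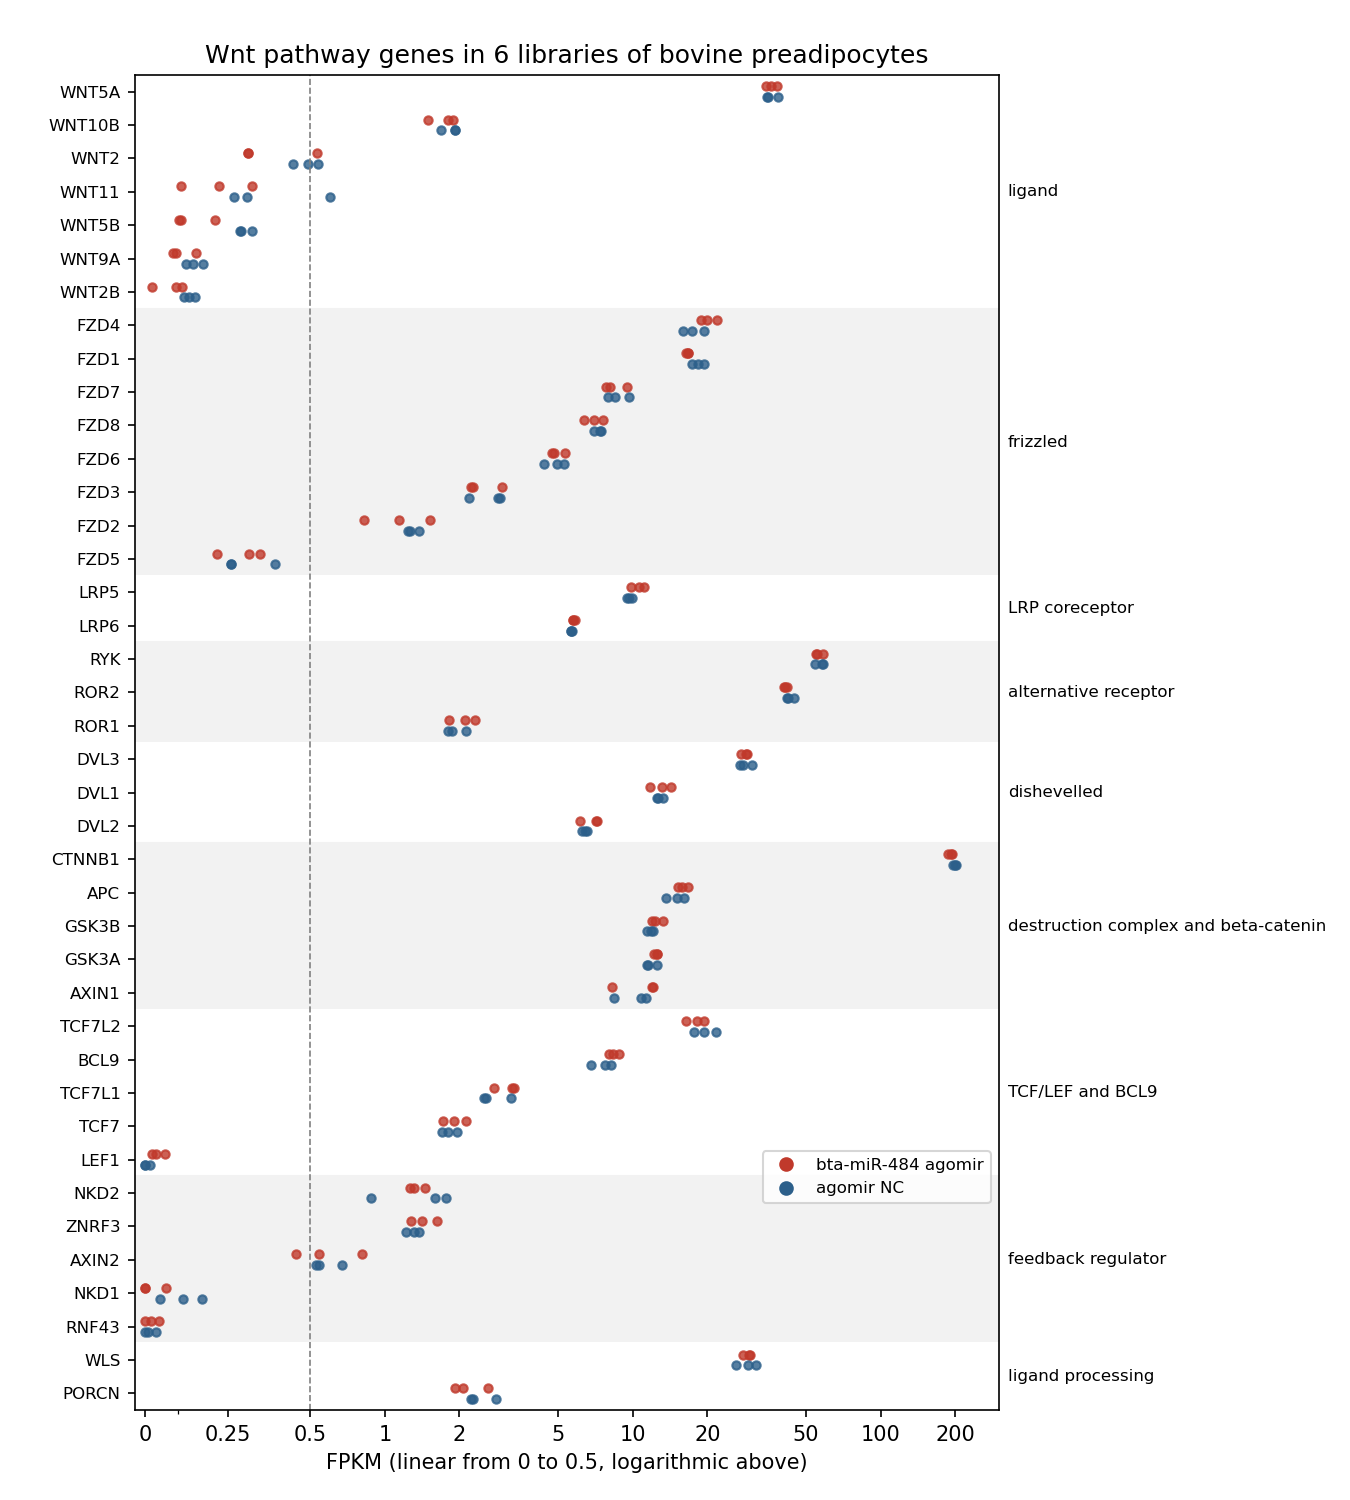
FPKM of the 40 Wnt genes in each library, grouped by role, on an axis that is linear from 0 to 0.5 FPKM and logarithmic above, with a dashed line at 0.5 FPKM. Red points are the 3 agomir libraries and blue points the 3 agomir NC libraries, and CTNNB1 stands highest, between 186 and 202 FPKM.

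Some marker genes of the cells also stood apart at an unadjusted p under 0.05 in limma. The 12 stromal markers summed to 17931, 18480 and 17749 FPKM in the agomir libraries and to 17676, 18838 and 18297 FPKM in the agomir NC libraries. COL3A1 was the most abundant of them, DLK1 was at 0, and of the 10 tested, 2 were lower with the agomir (4.31% of all genes were). Limma's adjusted p was 0.209 for NT5E and 0.376 for DCN, and in the fit without a filter the unadjusted p of DCN was 0.0909. NT5E, the CD73 gene, was at 71.7, 70.6 and 77.5 FPKM against 83.1, 89.2 and 89.4 FPKM. DCN, which encodes the matrix proteoglycan decorin, was at 2840.4, 2899 and 2850.4 FPKM against 2991, 3102 and 3248 FPKM. In both genes the groups were fully apart. They were also apart in ENG, the endoglin gene, which was lower. ZNF423, a transcription factor of preadipocytes, was higher without overlap, with a mean of 5.98 FPKM against 5.33 FPKM. Limma's unadjusted p was 0.0829 for ENG and 0.0785 for ZNF423, and that of ENG was 0.0307 in the fit without a filter. Groups did not overlap in 17.2% of all genes, with the agomir above in 10.9% and below in 6.36%.

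The 8 markers of mature adipocytes summed to 12.3, 13.0 and 12.1 FPKM with the agomir and to between 11.9 and 13.1 FPKM in the controls. LPL had the highest mean of them, and ADIPOQ, LEP and CIDEC were near 0. Of the 5 tested, 1 was higher (6.63% of all genes were) and 1 lower (4.31% of all genes were) at an unadjusted p under 0.05 in limma. PPARG, the master regulator of adipogenesis, was at 3.99, 3.69 and 3.91 FPKM against 3.39, 3.34 and 2.96 FPKM. FABP4, a fatty acid carrier, had 1.82, 2.33 and 1.54 FPKM against 3.57, 2.21 and 2.88 FPKM, with 1 library of each group crossing over. Limma's adjusted p was 0.407 for PPARG and 0.363 for FABP4. PPARG and CIDEA, a lipid droplet gene, were higher without overlap, as 10.9% of all genes were. The part of these markers in the results on Wnt genes was not tested.

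Markers of other cell types were at various levels. The 5 endothelial markers summed to between 3.77 and 4.54 FPKM, most of it VWF, and KDR reached 0.0480 FPKM at most. The 5 leukocyte markers summed to between 6.93 and 8.27 FPKM, most of it CD14, and PTPRC reached 0.119 FPKM at most. The 5 markers of smooth muscle and pericytes summed to between 208 and 237 FPKM. Most of that was ACTA2, which cultured stromal cells also express. CNN1, the gene of calponin in smooth muscle, was between 11.4 and 17.3 FPKM, while MYH11 reached 0.433 FPKM at most and RGS5 was listed at 0 in 5 of 6 libraries. Myogenic markers summed to at most 0.0191 FPKM and epithelial markers to at most 0.379 FPKM, and PAX7 was not analysed here. Of the markers in these 5 classes, 6 passed the filter, and 0 of the 6 had an unadjusted p under 0.05 in limma. Among all genes 10.9% did, so 6 genes are too few to set these classes apart from the rest.

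Among the ligands, WNT5A made up most of the Wnt transcripts. Its levels were 38.3, 36.0 and 34.5 FPKM in agomir libraries and 38.6, 34.7 and 35.0 FPKM in agomir NC libraries. The ranges of the groups nearly coincided, and the log2 difference was 0.0082, with a 95% interval from -0.13 to 0.14 in which its sign is not resolved. WNT5A is known mainly for signaling without beta-catenin. It took between 90.6% and 94.0% of the summed FPKM of the 7 ligands. That sum was 38.9 ± 2.21 FPKM with the agomir, next to 39.4 ± 2.15 FPKM (SD, n = 3 each).

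WNT10B, the ligand best known for restraining adipogenesis, came next. It was measured at 1.80, 1.88 and 1.49 FPKM with the agomir, next to 1.93, 1.68 and 1.91 FPKM in the controls. The groups overlapped, and the log2 difference of -0.08 (SE 0.12) was within the spread between replicates. WNT5A was 18.3 to 23.2 times as high as WNT10B within a library.

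The other 5 ligands had means under 0.5 FPKM, so they entered limma only in the fit without a filter. WNT2, WNT11, WNT5B, WNT9A and WNT2B, in falling order of their means, spanned 0.0224 to 0.603 FPKM over all libraries. Each overlapped with its neighbor in that order, so the order of neighbors is not resolved. WNT2, at 0.313 FPKM or more, lay above all values of WNT9A (at most 0.175 FPKM) and WNT2B (at most 0.150 FPKM). WNT5B, a close relative of WNT5A, was at 0.104, 0.211 and 0.109 FPKM in agomir libraries, below 0.322, 0.288 and 0.291 FPKM in the controls. The groups were apart, with a mean of 0.141 ± 0.0604 FPKM against 0.301 ± 0.0190 FPKM (SD, n = 3 each), a ratio of 0.470. When genes of all levels were let into the limma fit, the log2 difference of WNT5B was -0.32 (SE 0.088), with an unadjusted p of 0.00873 and an adjusted p of 0.449.

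WNT2B was at 0.0224, 0.113 and 0.0955 FPKM with the agomir, next to 0.133, 0.118 and 0.150 FPKM, again without overlap. In the limma fit without a filter its log2 difference was -0.14 (SE 0.079) at an unadjusted p of 0.125. For WNT5B and WNT2B the two-sided exact permutation p was 0.1, and 20 labelings of 6 libraries allow none smaller. WNT11 varied widely within both groups, with 0.224, 0.323 and 0.108 FPKM in agomir libraries and 0.270, 0.310 and 0.603 FPKM in controls. WNT2 and WNT9A overlapped between the groups. With depth unknown, no counting error can be put on values this low.

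Both genes that prepare ligands for export were expressed. WLS, the carrier that takes Wnt proteins to the cell surface, was at 29.3, 27.8 and 29.7 FPKM in agomir libraries, inside the span of 31.3, 26.2 and 29.0 FPKM in the controls. Its log2 difference was 0.0078, with a 95% interval from -0.14 to 0.16. PORCN, the enzyme that attaches the lipid to Wnt proteins, was between 1.93 and 2.81 FPKM, and its log2 difference of -0.13 (SE 0.13) was within the replicate spread. WLS was 10.7 to 15.4 times as high as PORCN in a library.

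Of the frizzled receptors, FZD4 and FZD1 were the most abundant, and they differed in opposite directions. FZD4, a receptor of norrin as well as of Wnt proteins, had 18.8, 19.9 and 21.9 FPKM in agomir libraries and 17.4, 19.4 and 16.0 FPKM in agomir NC libraries. The groups overlapped through agomir NC replicate 2 alone. Means of 20.2 ± 1.56 FPKM and 17.6 ± 1.74 FPKM (SD, n = 3 each) gave a ratio of 1.15. In limma the log2 difference of FZD4 was 0.20 (SE 0.081) at an unadjusted p of 0.0376 and an adjusted p of 0.427. The two-sided exact permutation p was 0.2.

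FZD1, a receptor of the canonical branch, had 16.4, 16.7 and 16.7 FPKM in agomir libraries and 17.4, 19.3 and 18.4 FPKM in agomir NC libraries. All agomir values were below all control values. Means of 16.6 ± 0.169 FPKM and 18.4 ± 0.968 FPKM (SD, n = 3 each) gave a ratio of 0.901. In limma the log2 difference of FZD1 was -0.14 (SE 0.057) at an unadjusted p of 0.0299 and an adjusted p of 0.406. The two-sided exact permutation p was 0.1, the smallest possible. In bulk samples, fewer cells with a receptor and less of its RNA per cell cannot be told apart.

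Neither call at an unadjusted p held in every fit with 1 library left out, where fewer libraries entered. For FZD1, limma's unadjusted p rose above 0.05 when any library but agomir NC replicate 1 was left out. It was then 0.0761, 0.0543 and 0.0613 without agomir replicates 1, 2 and 3, and 0.110 and 0.0586 without agomir NC replicates 2 and 3. The log2 difference of FZD1 stayed negative, between -0.18 and -0.11. Without agomir replicates 1, 2 and 3 it was -0.137, -0.149 and -0.149, and without agomir NC replicate 3 it was -0.144. With all libraries it was -0.145. For FZD4, limma's unadjusted p was 0.0631 and 0.144 without agomir replicates 2 and 3, and 0.0806 and 0.143 without agomir NC replicates 1 and 3. Its log2 difference stayed positive, between 0.13 and 0.27. It was 0.205 without agomir replicate 2 and 0.190 without agomir NC replicate 1, next to 0.196 with all libraries. Without agomir replicate 3 and agomir NC replicate 3 it was smaller, at 0.139 and 0.130. Limma's unadjusted p of FZD4 was also above 0.05 with no filter (0.0573), quantile normalization (0.0839), median-ratio scaling (0.0569) or no variance trend (0.0702).

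Set against each other, the 2 receptors separated the groups. FZD4 was 1.15, 1.19 and 1.31 times as high as FZD1 in agomir libraries, but 0.999, 1.00 and 0.867 times as high in agomir NC libraries. The ratios were apart, at 1.22 ± 0.0847 against 0.957 ± 0.0777 (SD, n = 3 each), and a ratio within a library does not depend on how libraries are scaled. It was chosen after the values were seen and is given without a test. The 8 frizzleds summed to 58.1, 62.7 and 62.5 FPKM with the agomir, next to 58.3, 65.3 and 59.6 FPKM, so the totals overlapped. FZD4 took 31.8% to 35.0% of that sum in agomir libraries and 26.8% to 29.8% in agomir NC libraries.

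Below this pair, the order of the frizzleds was the same in all 6 libraries. FZD7 had a mean of 8.58 FPKM, FZD8 of 7.12 FPKM, FZD6 of 4.91 FPKM, FZD3 of 2.57 FPKM and FZD2 of 1.23 FPKM. Their log2 differences ran from -0.13 in FZD2 to 0.03 in FZD6, and the groups overlapped in each of these 5 genes. FZD2 varied more within agomir than within agomir NC libraries, at 0.826, 1.14 and 1.52 FPKM, next to 1.24, 1.27 and 1.38 FPKM in the controls. FZD5 was between 0.217 and 0.392 FPKM, below the filter.

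LRP5 and LRP6 are the coreceptors that frizzleds need in the canonical branch. LRP5 was measured at 11.1, 9.87 and 10.6 FPKM with the agomir, next to 9.44, 9.90 and 9.63 FPKM in the controls. Agomir replicate 2 lay within the control range, and the log2 difference of LRP5 was 0.11 (SE 0.066) with limma's unadjusted p at 0.117 and its adjusted p at 0.570. LRP6 had 5.74, 5.85 and 5.76 FPKM in agomir libraries and 5.63, 5.71 and 5.64 FPKM in the controls. These values were apart but close, with a ratio of means of 1.02. The log2 difference of LRP6 was 0.03, with a 95% interval from -0.13 to 0.18, but only 0.014 with median-ratio scaling and 0.00018 after quantile normalization. LRP5 was 1.68 to 1.93 times as high as LRP6 in a library.

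Of the receptors of the other branches, RYK and ROR2 were more abundant than any frizzled. RYK, whose kinase domain is inactive, was at 54.7, 58.5 and 55.3 FPKM with the agomir, next to 57.9, 54.1 and 58.5 FPKM in the controls. The groups overlapped widely, and the log2 difference was -0.02 with a 95% interval from -0.13 to 0.09. ROR2, a receptor tyrosine kinase that binds WNT5A, was at 40.6, 42.0 and 41.3 FPKM, next to 42.4, 44.8 and 41.9 FPKM. Agomir replicate 2 was above agomir NC replicate 3, and the log2 difference of ROR2 was -0.06 (SE 0.046) with an adjusted p of 0.681 in limma. Its relative ROR1 was between 1.80 and 2.32 FPKM, and ROR2 was 18.1 to 24.0 times as high.

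Dishevelled proteins relay the signal from the receptors. DVL3, the most abundant, had 27.4, 28.7 and 28.9 FPKM in agomir libraries, within the span of 27.0, 30.3 and 27.7 FPKM in the controls. Its log2 difference was 0.0028, with a 95% interval from -0.12 to 0.13. DVL1 had a mean of 12.9 FPKM and DVL2 of 6.60 FPKM, in that order in all 6 libraries. Summed over the 3 genes, dishevelled transcripts were at 48.2 ± 1.41 FPKM with the agomir, next to 47.5 ± 1.80 FPKM (SD, n = 3 each).

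CTNNB1, the gene of beta-catenin, was the highest of all members, above 97.9% of the genes tested. Its levels were 186, 193 and 192 FPKM in agomir libraries and 196, 199 and 202 FPKM in agomir NC libraries. The groups were apart by a small margin, with a mean of 190.5 ± 3.59 FPKM against 199 ± 2.91 FPKM (SD, n = 3 each), a ratio of 0.959. In limma the log2 difference of CTNNB1 was -0.06 (SE 0.037), with a 95% interval from -0.14 to 0.02, an unadjusted p of 0.131 and an adjusted p of 0.593. The two-sided exact permutation p was 0.1. These are transcript levels, while Wnt signaling is known to act on the stability of the protein.

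The destruction complex marks beta-catenin for degradation. APC, a scaffold, had a mean of 15.4 FPKM, the kinases GSK3B and GSK3A 12.1 FPKM each, and AXIN1, the scaffold that holds the complex together, 10.5 FPKM. GSK3B and GSK3A were not told apart in level, with GSK3B 0.908 to 1.09 times as high. CTNNB1 was 11.6 to 14.8 times as high as APC. The log2 differences of APC, GSK3A, GSK3B and AXIN1 were 0.09, 0.07, 0.08 and 0.07, and the groups overlapped in each. AXIN1 varied within both groups, with 11.9, 12.1 and 8.24 FPKM in agomir libraries and 11.3, 8.39 and 10.8 FPKM in the controls. Agomir replicate 3 and agomir NC replicate 2 stood below the rest, and the 95% interval of AXIN1 was wide, from -0.27 to 0.40.

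**Figure D2:**
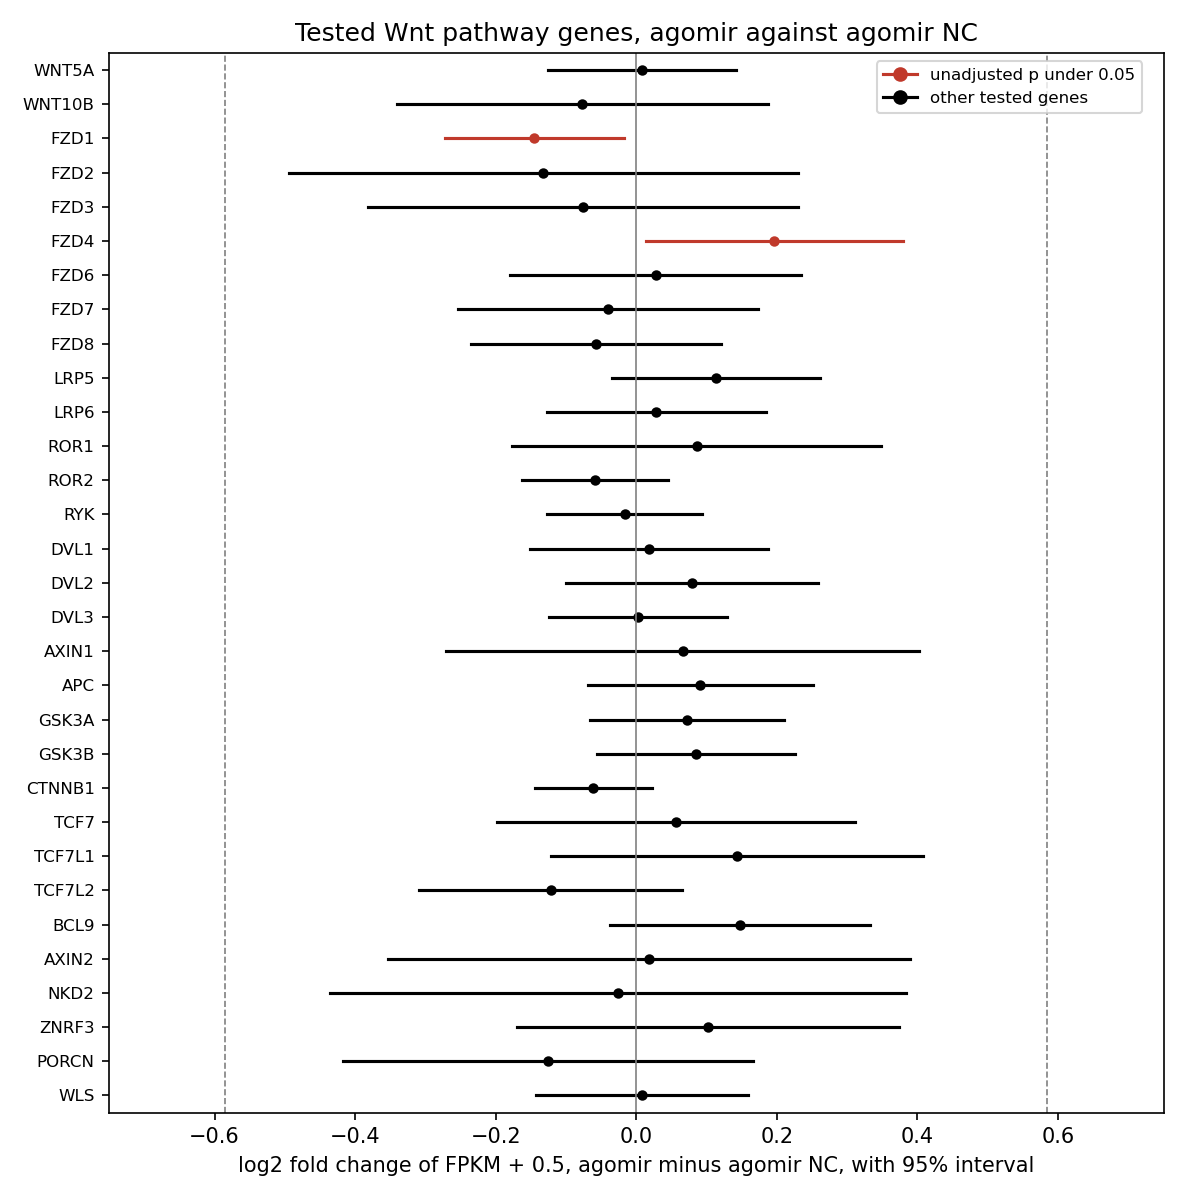
Log2 difference of FPKM + 0.5, agomir minus agomir NC, for the 31 tested Wnt genes as points, with limma's 95% interval as lines. Red marks FZD1 and FZD4, the genes at an unadjusted p under 0.05, and no interval reaches the dashed lines of a 1.5-fold change of FPKM + 0.5.

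Of the factors that take beta-catenin to DNA, TCF7L2 was the most abundant. It was measured at 16.4, 18.1 and 19.3 FPKM with the agomir, next to 19.4, 21.7 and 17.7 FPKM in the controls. The groups overlapped, and the log2 difference of TCF7L2 was -0.12 (SE 0.084) at limma's adjusted p of 0.633. Its size depended on single libraries, at -0.048 when agomir NC replicate 2 was dropped, -0.062 when agomir replicate 1 was and -0.19 when agomir NC replicate 3 was. Limma's unadjusted p was 0.565, 0.501 and 0.0476 in these fits, and the lowest adjusted p among them was 0.543. TCF7L1, known chiefly as a repressor, had a mean of 2.94 FPKM and TCF7 of 1.87 FPKM. TCF7L2 was 5.46 to 8.46 times as high as TCF7L1.

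BCL9, an adaptor that ties beta-catenin to its coactivators, was at 8.35, 8.04 and 8.82 FPKM, next to 8.15, 7.76 and 6.76 FPKM in the controls. The groups overlapped, with a log2 difference of 0.15 (SE 0.082) and an adjusted p of 0.555 in limma. LEF1, the remaining factor of this family, was at 0.0617, 0.0332 and 0.0221 FPKM in agomir libraries, and in agomir NC libraries it was listed at 0, 0.0151 and 0 FPKM. The LEF1 values were apart, but with depth unknown no fold is given at this level. In the fit without a filter, limma's unadjusted p of LEF1 was 0.126.

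Feedback regulators, which canonical signaling itself induces in many tissues, were low. NKD2, which binds dishevelled, was at 1.31, 1.45 and 1.26 FPKM with the agomir, inside the control span of 0.879, 1.60 and 1.76 FPKM. Its log2 difference of -0.03 (SE 0.18) changed sign with the libraries used, from -0.25 without agomir NC replicate 1 to 0.11 without agomir NC replicate 3. ZNRF3, a ubiquitin ligase that removes frizzleds from the cell surface, was between 1.22 and 1.62 FPKM and could not be ranked against NKD2.

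AXIN2, the most widely used readout of canonical signaling, was at 0.544, 0.456 and 0.807 FPKM in agomir libraries and 0.544, 0.669 and 0.528 FPKM in the controls. The groups overlapped, and the log2 difference of AXIN2 was 0.02 with a 95% interval from -0.35 to 0.39, wide enough to hold a 1.25-fold change either way. NKD1, a relative of NKD2, reached 0.172 FPKM at most and was listed at 0 in agomir replicates 1 and 3. RNF43, a relative of ZNRF3, reached 0.0416 FPKM at most. Both entered limma only in the fit without a filter, where the log2 difference of NKD1 was -0.23 (SE 0.095) with an unadjusted p of 0.0499 and an adjusted p of 0.575. The groups overlapped in both genes.

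A textbook list of 81 other genes of the pathway was also followed, and all were in the table, TLE5 under its older symbol AES. Of these, 53 were tested and 28 were below the filter, 10 of them at 0 in every library. After adjustment, 0 of the 53 had a limma p under 0.05. At an unadjusted p under 0.05 there were 4 (7.55%, beside 10.9% of all genes). With the agomir, 2 were higher (6.63% of all genes) and 2 lower (4.31% of all genes). Groups did not overlap in 13 (24.5%, beside 17.2% of all genes). The agomir was above in 9, beside 10.9% of all genes, and below in 4, beside 6.36%. The median log2 difference was 0.03, next to 0.01 for all genes. None of the 12 further Wnt ligands passed the filter, and the highest, WNT8B, was between 0.0941 and 0.283 FPKM. The R-spondin RSPO3, which strengthens Wnt signaling, was between 2.19 and 3.60 FPKM, and its receptor LGR4 was between 17.7 and 21.0 FPKM while LGR5 was listed at 0.

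PTK7, a kinase-like receptor of planar cell polarity, had the smallest p of this list. Its levels were 28.5, 25.1 and 25.6 FPKM in agomir libraries and 29.6, 30.3 and 31.9 FPKM in the controls, without overlap. In limma the log2 difference of PTK7 was -0.21 (SE 0.060) at an unadjusted p of 0.00592 and an adjusted p of 0.310, and the unadjusted p was under 0.05 in all 15 other settings. GPC4, a glypican that binds Wnt proteins at the cell surface, had 23.6, 25.2 and 22.1 FPKM in agomir libraries and 24.6, 30.3 and 28.7 FPKM in the controls. Agomir NC replicate 1 lay within the agomir range, and the log2 difference of GPC4 was -0.23 (SE 0.081) with an adjusted p of 0.370 in limma.

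TLE3, a corepressor of TCF factors, was above its controls in each agomir library, with 14.9, 13.7 and 15.2 FPKM next to 12.7, 12.7 and 13.2 FPKM. CXXC5, a protein that binds dishevelled and dampens the signal, was too, with 31.0, 28.3 and 29.9 FPKM next to 27.3, 26.9 and 25.8 FPKM. The log2 differences were 0.18 (SE 0.061) in TLE3 and 0.15 (SE 0.053) in CXXC5, with limma's adjusted p at 0.364 and 0.363. These calls at an unadjusted p were lost in some fits with 1 library left out, where fewer libraries entered. Limma's unadjusted p rose above 0.05 in TLE3 without agomir replicate 1 or 3. In CXXC5 it did so without agomir replicate 1 or agomir NC replicate 3. In GPC4 it did so without agomir replicate 3 or agomir NC replicate 2 or 3. It reached 0.0710 in TLE3, 0.0697 in CXXC5 and 0.0735 in GPC4. In the fits that lost the call, the log2 difference was 0.163 and 0.147 in TLE3 and 0.123 and 0.129 in CXXC5. For GPC4 it was -0.183, -0.167 and -0.204, next to -0.228 with all libraries.

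Of 27 genes known as targets of beta-catenin in various tissues, 26 were in the table, CCN5 under its older symbol WISP2, and CCN4 was not analysed here. Of these 26, 20 were tested, and 0 had an adjusted p under 0.05 in limma, where the lowest was 0.248. At an unadjusted p under 0.05 there were 6 (30%, beside 10.9% of all genes), 5 higher (6.63% of all genes) and 1 lower (4.31% of all genes). Groups did not overlap in 7 (35%, beside 17.2% of all genes). The agomir was above in 5, beside 10.9% of all genes, and below in 2, beside 6.36%. The median log2 difference of the 20 was 0.03. Many of these genes also answer to growth factors, so the list is not specific to Wnt. AXIN2, LEF1, TCF7, NKD1, RNF43 and ZNRF3 are targets too, but were counted among the members. Of these, AXIN2, TCF7 and ZNRF3 were tested, with limma's unadjusted p at 0.914, 0.630 and 0.421. Because the list was chosen with earlier results of these data known, its shares are not an independent comparison.

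CCND1, the cyclin D1 gene, had 32.9, 38.6 and 34.8 FPKM in agomir libraries and 29.0, 30.1 and 25.7 FPKM in agomir NC libraries. The groups were apart, with a mean of 35.4 ± 2.91 FPKM against 28.3 ± 2.28 FPKM (SD, n = 3 each), a ratio of 1.25. In limma the log2 difference of CCND1 was 0.32 (SE 0.075) at an unadjusted p of 0.00178 and an adjusted p of 0.252. JUN, a subunit of the AP-1 transcription factor, had 19.1, 20.04 and 18.4 FPKM in agomir libraries and 16.8, 15.0 and 15.9 FPKM in the controls, also apart. In limma the log2 difference of JUN was 0.27 (SE 0.062) at an unadjusted p of 0.00173 and an adjusted p of 0.248. In both genes the unadjusted p was under 0.05 in all 15 other settings, and limma's adjusted p ran from 0.235 to 0.548.

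MYC, a regulator of cell growth, had 11.6, 11.9 and 11.8 FPKM in agomir libraries and 10.1, 10.5 and 10.8 FPKM in the controls, a log2 difference of 0.16. TCF4 here is the gene of an E protein and not TCF7L2, whose protein is often given the same name. It had 7.45, 8.29 and 7.20 FPKM in agomir libraries and 6.62, 6.52 and 6.53 FPKM in the controls, a log2 difference of 0.20. FOSL1, another AP-1 subunit, had 36.1, 33.5 and 35.3 FPKM next to 32.1, 32.1 and 32.9 FPKM, a log2 difference of 0.11. GJA1, the connexin 43 gene, was the lower one, with 469, 478 and 466 FPKM next to 494, 502 and 532 FPKM, a log2 difference of -0.11. The groups were apart in all 4 genes, and limma's adjusted p was 0.381, 0.383, 0.442 and 0.373 in the order given.

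Several of these calls were lost in fits with 1 library left out, where fewer libraries entered. Limma's unadjusted p rose above 0.05 in MYC without agomir replicate 2 or 3 or agomir NC replicate 1. It did so in TCF4 without agomir replicate 2, and in GJA1 without agomir replicate 1 or 3. In FOSL1 it did so without any library but agomir replicate 2. It reached 0.0685 in MYC, 0.0871 in TCF4, 0.0704 in GJA1 and 0.149 in FOSL1. In the fits that lost the call, the log2 difference was 0.137 to 0.161 in MYC and 0.0875 to 0.121 in FOSL1. It was 0.149 in TCF4, and -0.111 and -0.106 in GJA1. With all libraries, the values of MYC, FOSL1, TCF4 and GJA1 were 0.163, 0.110, 0.205 and -0.114. Limma's unadjusted p of FOSL1 was also above 0.05 with median-ratio scaling, no variance trend and the replicate block. That of GJA1 was above 0.05 with quantile normalization and no variance trend. Quantile normalization also brought the log2 difference of GJA1 down in size from -0.11 to -0.055. Of the targets most closely tied to Wnt signaling, SP5 was listed at 0 in every library and NOTUM reached 0.113 FPKM at most. TNFRSF19, also below the filter, was at 0.0220, 0.00967 and 0.0226 FPKM in agomir libraries. It was listed at 0 in all agomir NC libraries, and with depth unknown no fold is given.

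**Figure D3:**
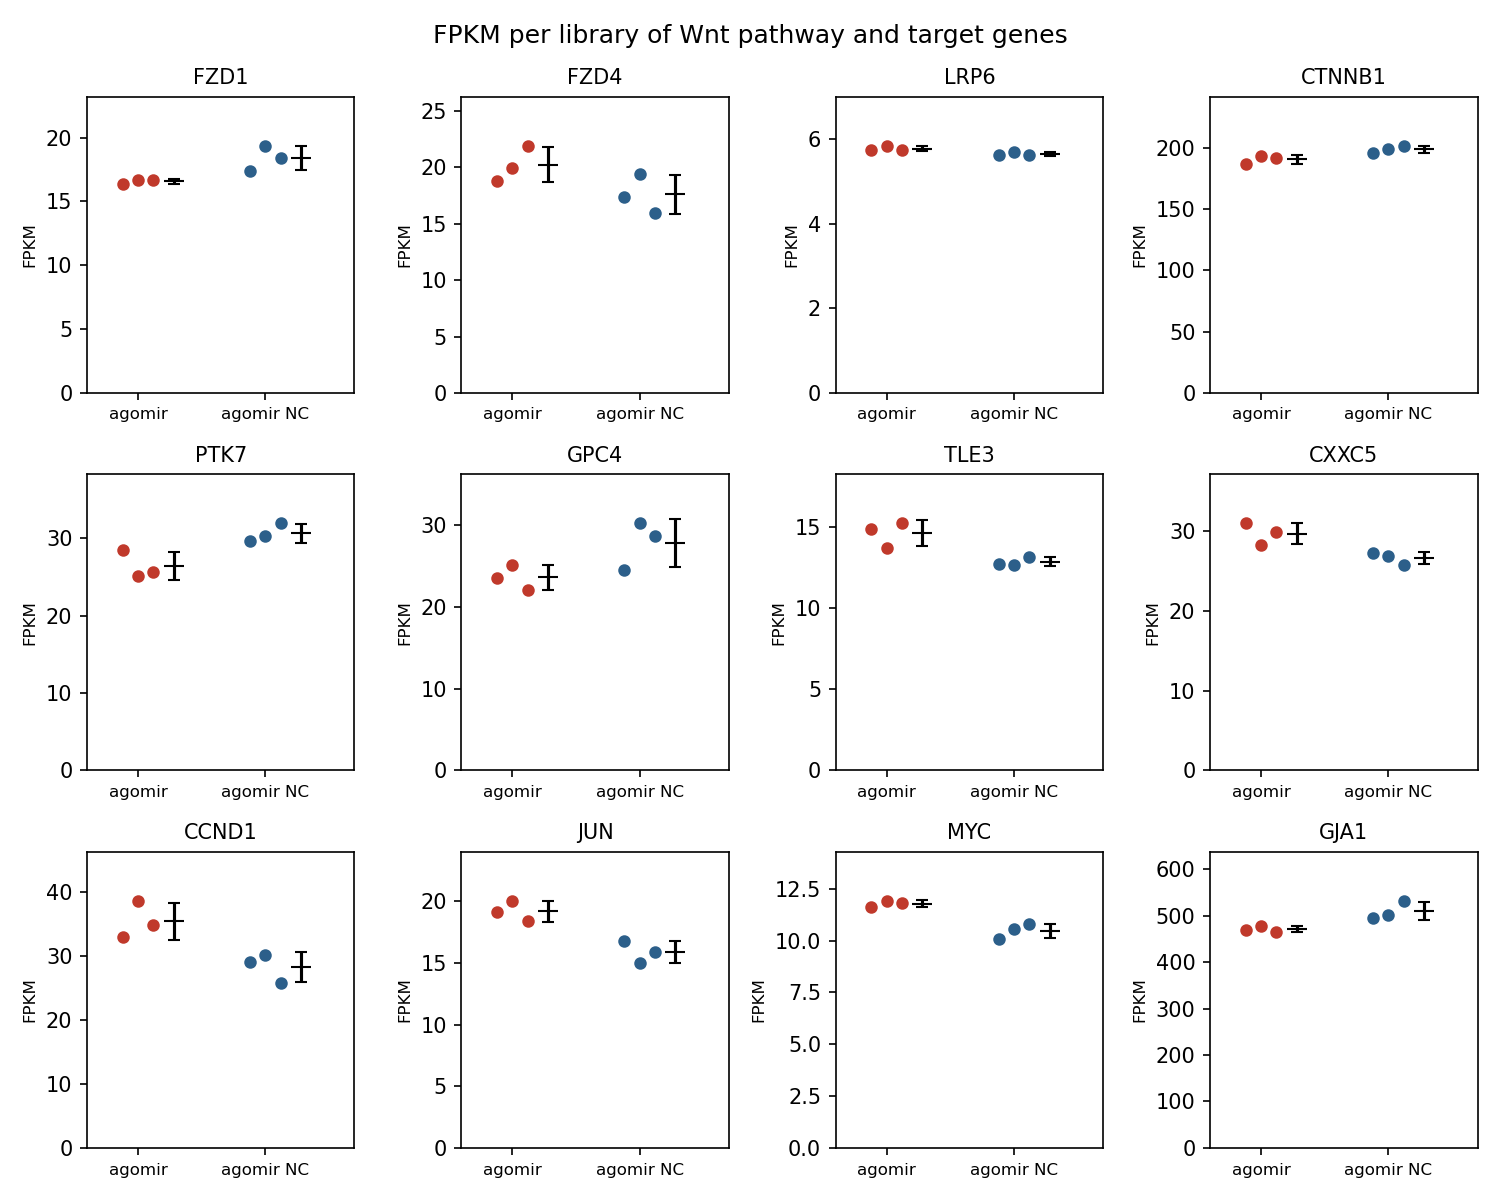
FPKM in each library of 12 Wnt pathway and target genes, on linear axes from 0, with agomir libraries in red, agomir NC libraries in blue, and the mean with its SD (n = 3) in black beside each group. Values of LRP6 lie between 5.63 and 5.85 FPKM in both groups together, while those of CCND1 run from 32.9 FPKM upward with the agomir and up to 30.1 FPKM in the controls.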

How the data were processed

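The authors deposited 1 FPKM value per gene for each of 6 libraries. Submitters' processing notes name fastp, HISAT2, StringTie and the build ARS-UCD1.2, without versions. Low values showed no steps of whole reads, as at most 17 of up to 4101 genes fell into a bin of 0.002 in the log2 ratio between libraries, so no counting error can be given. FPKM sums per library ran from 365977 to 379361, and no nonzero value was identical in any 2 libraries.

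Values were taken as log2(FPKM + 0.5) for the 12422 genes whose mean reached 0.5 FPKM. Groups were compared in limma 3.58.1 under R 4.3.3, two-sided, using a variance trend and no replicate term, and adjusted by Benjamini-Hochberg over these genes at 0.05. The code was tested on simulated data. Exact permutation tests used mean FPKM over 20 labelings.

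The members and lists were chosen with earlier results of these data known. By the naming rule, each library's value is given for members at an unadjusted p under 0.05, members with groups apart and the most abundant member of each role, and for up to 8 genes of each other list at an unadjusted p under 0.05. Beyond it, WNT10B, WNT11, ROR2, BCL9, AXIN1, AXIN2, FZD2, NT5E, DCN, PPARG, FABP4 and TNFRSF19 were given so after their values were seen. RefSeq's table of ARS-UCD2.0 served for symbols and neighbors only, and all 40 members matched. Alternatives were pseudocounts of 0.1 and 1, no filter or a minimum mean of 1 FPKM, median-ratio or quantile scaling, a fit without the trend, weighted libraries, a replicate block, and leaving out single libraries.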

Additional observations from a re-analysis of the deposited data

How the results depend on the processing

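In limma, 0 Wnt members, 0 other pathway genes and 0 targets had an adjusted p under 0.05 in the reported setting and in 15 others. At an unadjusted p under 0.05 there were 2 members, and 1 (FZD1) with median-ratio scaling (11% of all genes), 1 with quantile normalization (10.7%) and 1 without the variance trend (10.1%). Leaving out single libraries gave 0 to 1, with 0 without agomir replicate 2 or 3, FZD4 without agomir replicate 1 or agomir NC replicate 2, FZD1 without agomir NC replicate 1 and TCF7L2 without agomir NC replicate 3, where fewer libraries entered and 8.09% to 11.5% of all genes were under 0.05. Without a filter there were 3 (FZD1, WNT5B and NKD1), as low genes entered, and 8.69% of all genes in that fit were. Other pathway genes numbered 3 to 6 and targets 4 to 7, while the share of all genes ran from 8.09% to 11.5% over the settings. Of 315 log2 differences of single genes, 294 kept their sign and their side of the adjusted threshold, and 21 changed sign, all in 5 genes near 0. WNT5A was -0.0068 with median-ratio scaling, -0.0015 with quantile normalization and -0.0024 with array weights, and -0.031 to 0.057 with single libraries left out. DVL3 was -0.012 and -0.011 under these scalings and -0.031 to 0.050 with libraries left out, and WLS was -0.0071 with median-ratio scaling and -0.059 to 0.068 with libraries left out. RYK ran from -0.052 to 0.0043 and NKD2 from -0.25 to 0.11 with libraries left out. The cause was not tested. The FZD4 to FZD1 ratio differed by 0.262, and by 0.215 to 0.297 with libraries left out, a check chosen after seeing the data.

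Both groups carry replicate numbers 1 to 3. Libraries with equal numbers deviated from their groups with correlations of -0.0506, 0.0532 and 0.0387. Libraries with unequal numbers were not compared, so these values cannot tell what equal numbers share. With the replicate block, 2 members (FZD1 and FZD4) had an unadjusted p under 0.05 in limma and 0 an adjusted one, and 1260 of all genes (10.1%) had an unadjusted p under 0.05. Unknown depth limits what can be said of the 9 members below 0.5 FPKM.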

Other observations

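In the RefSeq annotation, WNT10B lies next to WNT1, and WNT9A next to WNT3A. WNT1 was listed at 0 in all 6 libraries, while WNT10B reached 1.93 FPKM. WNT3A was listed at 0 in 5 of 6 libraries and at 0.0116 FPKM in agomir replicate 3, and WNT9A was between 0.0839 and 0.175 FPKM.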
